A study of Mus musculus with 8 samples.

Results

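This account concerns 41 mouse genes of glutathione metabolism, antioxidant defence and detoxification, chosen by symbol. All 41 were found among the 31228 genes of the expression table. They were followed in duct epithelium and in organoids, hollow epithelial structures grown in a gel. All samples were from C57BL/6 mice of no stated age, with no genetic change or disease named in the labels. The groups were 1 epithelium of the extrahepatic bile duct, 1 epithelium of the pancreatic duct, 3 bile duct organoids and 3 pancreatic duct organoids, and the study asked how alike the ducts and their organoids are. Ducts were dissected and digested with collagenase IV for 20 min at 37 °C; the epithelia then went into Trizol, whereas organoids grew in Matrigel for 3 to 4 passages. The organoid medium contained 1 mM N-acetylcysteine, which is an antioxidant and a cysteine source, 10 mM nicotinamide and 2% B27 without vitamin A. Its growth factors were EGF at 50 ng/mL, FGF10 and R-Spondin-1 at 100 ng/mL each, and Noggin at 25 ng/mL. Wnt3A-conditioned medium at 30% and the compound Y27632 at 10 µM were present only until organoids with a lumen had formed. Cultures were kept under 95% air and 5% CO2. Culture and freshly dissected state, and every medium component, therefore differ together between organoid and epithelium and cannot be told apart. The labels do not say whether the replicate organoids came from separate mice, so p-values measure only the spread between these libraries.

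As background, glutathione is a tripeptide made in a pair of steps, the first by glutamate-cysteine ligase, and it is the main small thiol of the cytoplasm. Peroxidases and transferases consume it to reduce peroxides and to conjugate electrophiles, and glutathione reductase restores it with NADPH drawn from the pentose phosphate pathway and malic enzyme. Many of these genes are induced by the transcription factor NRF2 (gene Nfe2l2), which KEAP1 holds down until oxidants or electrophiles modify it. Duct cells are exposed to bile or pancreatic secretions and carry several of the transferases.

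Levels are given as FPKM, a level per exon length and sequencing depth, scaled between the 8 libraries by a trimmed mean of log ratios, and differences are on log2(scaled FPKM + 1). For each gene the scaled FPKM of the epithelium is given first, against organoids 1, 2 and 3 of the same organ. The scaling removed a shift of 0.27 (bile duct) and 0.30 (pancreatic duct) log2 between organoids and epithelium, so each difference is relative to that. The FPKM steps implied 12876470 to 20828216 reads per library, and intervals built on reads cover counting error only. The 16 duct markers fixed for this work, among them Krt19 and Epcam, were above 0 in every library, but their summed level was 3370.0 scaled FPKM for the epithelium of the bile duct, only 846 for that of the pancreatic duct, and between 5567 and 11411 for organoids. Other cell types were present in the epithelia. The 21 acinar markers summed to 33407 (bile duct) and 68159 (pancreatic duct) against 3.40 to 9.92 in organoids, where 13 to 16 of them were at 0. Sums for 15 fibroblast markers were 2297 and 2434 against 0.818 to 9.18, with 4 to 6 at 0 in an organoid, and those for 10 smooth muscle markers 3399 and 6106 against 2.05 to 8.76, with 1 to 4 at 0. The 12 endothelial markers gave 854 and 1361 against 2.27 to 2.84, with 2 to 5 at 0, and the 10 macrophage markers 373 and 265 against 2.56 to 12.6, with 4 to 7 at 0. Intestinal secretory markers (14 genes) summed to 3678 and 783 against 88.0 to 212 in organoids, with 5 to 7 at 0, and the 20 hepatocyte markers to 519 and 160.4 against 24.3 to 183, with 4 to 10 at 0. The 20 proliferation genes summed to 149 and 92.9 in the epithelia against 421 to 912 in the organoids. In bulk libraries, fewer cells of a type and less RNA per cell cannot be told apart, and the part of these mixtures in the differences below was not tested.

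**Figure D1:**
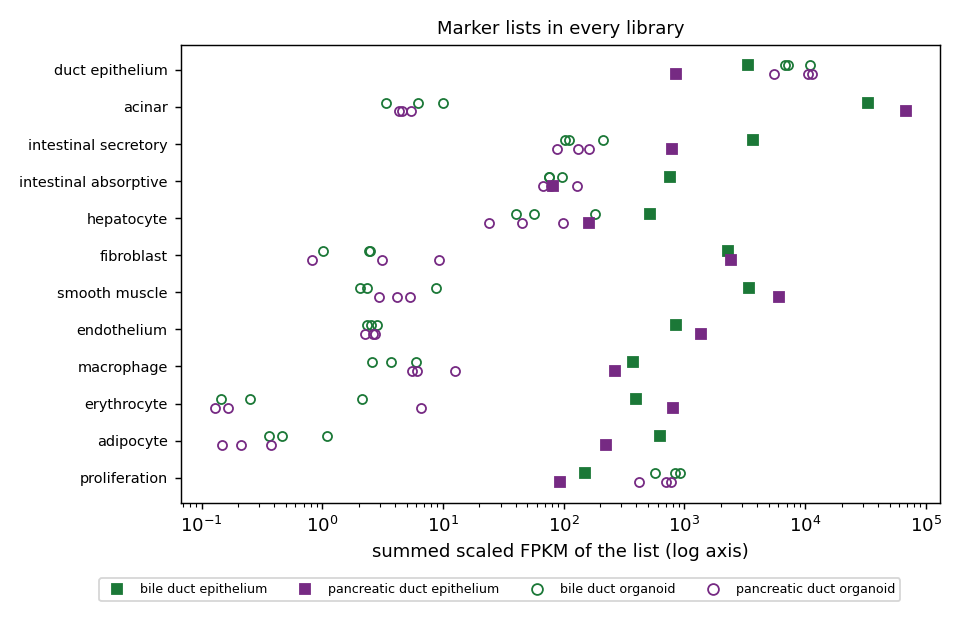
Summed scaled FPKM (log axis) of 12 marker lists in every library; filled squares are the epithelia and open circles the organoids, green for bile duct and purple for pancreatic duct. Acinar, fibroblast, smooth muscle, endothelial and macrophage sums lie far lower in all 6 organoids than in either epithelium, whereas the duct list is higher in the organoids, with pancreatic duct epithelium lowest at 846.

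In pancreatic duct the members at least 2-fold higher in organoids outnumbered those lower. In bile duct the counts were 10 and 10 as scaled here, 11 and 7 with FPKM as deposited, and 8 and 10 under median-ratio scaling. The pentose phosphate genes G6pdx, Pgd and Tkt were higher in both organs, and Nqo1, Gpx3, the mu-class transferases Gstm1 and Gstm2, and Aldh1a1 were lower in both. In bile duct, 10 of the 40 members above the filter of 1 FPKM were at least 2-fold higher in organoids and 10 at least 2-fold lower, with all 3 organoids on the same side of the epithelium. By this rule 38.9% of all 15422 genes were called, 12.5% higher and 26.3% lower, and the median difference was 0.22 for members and -0.09 for all genes. In pancreatic duct, 19 of 39 members were higher and 6 lower, where 40.4% of 15207 genes were called, 15% higher and 25.4% lower, and the medians were 1.02 for members and -0.09 for all genes. These counts carry no test because each epithelium is a single library. Against its epithelium the summed duct list was 2.01 to 3.26 times higher in bile duct organoids and 6.58 to 13.5 times higher in pancreatic duct organoids. By gene, 8 of its 16 markers were at least 2-fold higher in bile duct organoids, 3 (Elf3, Prom1 and Muc1) were lower and 5 were not called, and in pancreatic duct 14 were higher and 0 lower. Its part in the members' differences was not tested. A limma fit over all 8 libraries, with organ as a term, tested the difference common to both organs. It called 18 of 40 members higher and 7 lower in organoids at an adjusted p under 0.05, and 58.2% of the 15039 genes tested, 27.3% higher and 30.8% lower. The median difference was 0.45 for members and -0.02 for all genes. This fit rests on 2 epithelia of different organs. With an epithelium left out, its value is the difference of the other organ alone, against 1 library, and no longer a common difference. Calls and p-values given below without an epithelium, also among the 14 alternatives of this fit, are to be read in that way. Under FPKM as deposited 20 members rose and 6 fell, and under median-ratio scaling 15 rose and 8 fell. All genes split into 4109 higher and 4639 lower as scaled here, 5497 and 3659 as deposited, and 3249 and 5600 under median-ratio scaling. In bile duct, the corresponding genes were 1932 higher and 4063 lower as scaled here, 2707 and 3526 as deposited, and 1507 and 4501 under median-ratio scaling. In pancreatic duct they were 2284 and 3865, 3125 and 3306, and 1850.0 and 4334. In pancreatic duct, Gpx2, Gsta1, Gsta2 and Aldh3a1 were under 1 FPKM in the epithelium and passed the filter only through the organoids, where they are high; Aldh3a1 did so in bile duct as well. Of the 39 members tested in both organs, 10 were at least 2-fold higher in both, 6 lower in both, 8 higher in pancreatic duct alone, 2 lower in bile duct alone, 1 opposite, and 12 called in neither. Of the 14419 genes tested in both organs, 10.5% were higher in both, 20.2% lower in both, 4.85% higher in pancreatic duct alone, 2.96% lower in bile duct alone, 0.375% opposite and 54.9% called in neither. Being called in a single organ was not tested as a difference between organs.

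**Figure D2:**
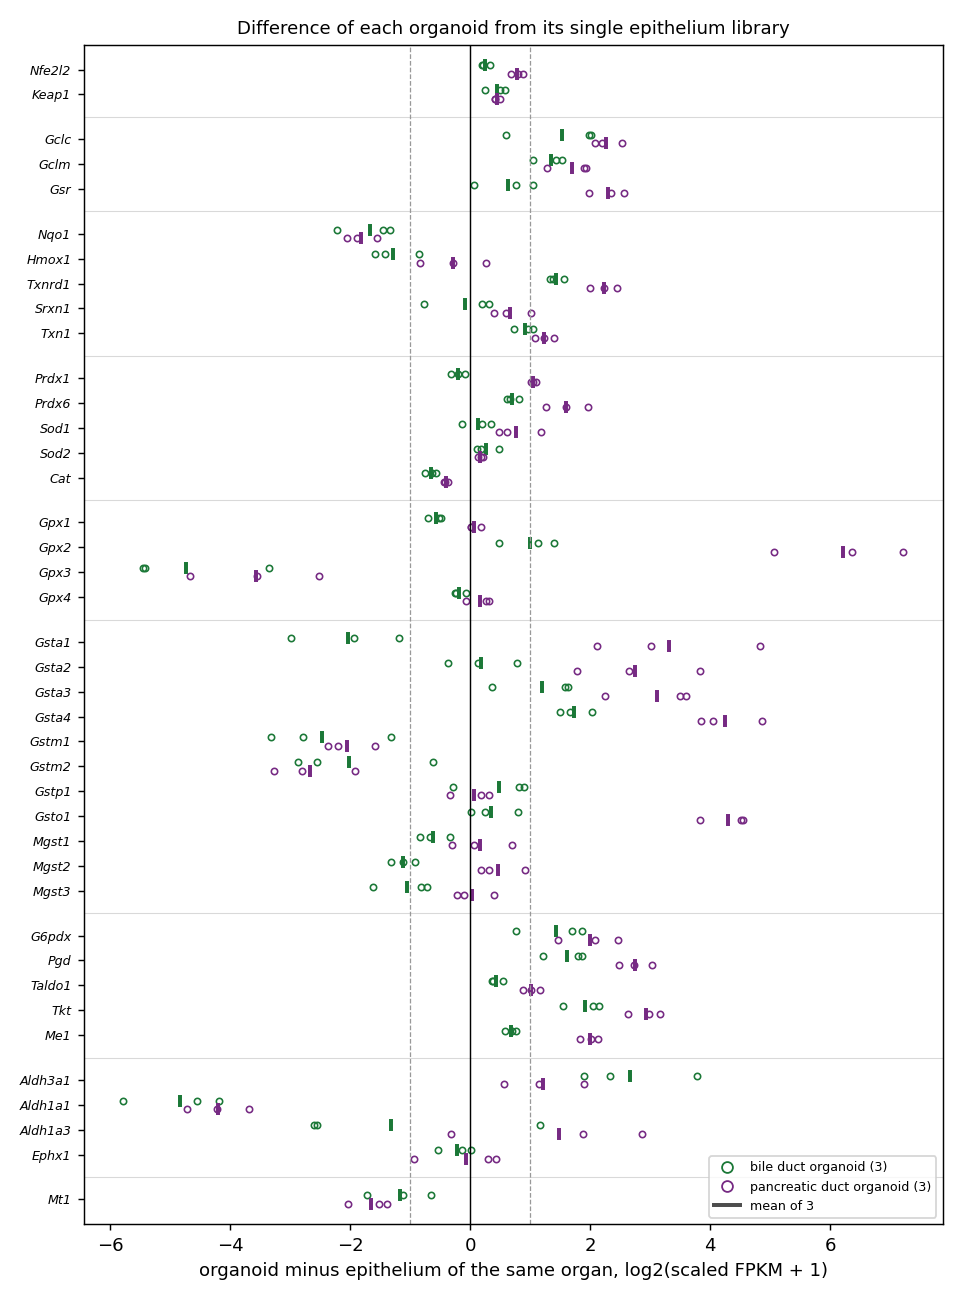
Difference of each of 3 bile duct (green) and 3 pancreatic duct (purple) organoids from the epithelium of its own organ, on log2(scaled FPKM + 1), for 40 members grouped by role; thick ticks are means and dashed lines mark 2-fold. Gclm, Txnrd1, Pgd and Tkt lie to the right for all 6 organoids, and Nqo1, Gpx3, Aldh1a1 and Mt1 to the left.

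The transcription factor gene Nfe2l2 and its inhibitor Keap1 rose by less than 2-fold. Nfe2l2 had 61.6 against 71.4, 78.0 and 70.8 in bile duct, and 44.6 against 82.6, 72.5 and 78.3 in pancreatic duct, and its common difference was log2 0.52 (SE 0.14, limma adjusted p = 0.0145). Keap1, the adaptor that presents NRF2 for degradation, had 9.23 against 11.1, 14.3 and 13.5 in bile duct, and 8.92 against 13.0, 12.3 and 12.3 in pancreatic duct, with log2 0.44 (SE 0.11, limma adjusted p = 0.0122). All 6 organoids lay above the epithelium of their organ for both genes, but both calls were lost under median-ratio scaling and without pancreatic duct epithelium, where the limma adjusted p was 0.240 for Nfe2l2 and 0.0999 for Keap1. That of Keap1 was also lost without bile duct epithelium. Keap1 also shares exon bases with the antisense gene Gm16754, and whether counting used strand is not given in the sources used here.

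All 3 genes of glutathione synthesis and recycling rose in organoids, against a background of 27.3% called higher. Gclc (chromosome 9, 77754535 to 77794485, GRCm38), the catalytic subunit of glutamate-cysteine ligase, had 23.7 against 36.3, 96.4 and 98.5 in bile duct, and 13.0 against 80.1, 58.4 and 62.8 in pancreatic duct. Every organoid exceeded its epithelium, bile duct organoid 1 by the least, and the common difference was log2 1.90 (SE 0.40, limma adjusted p = 0.00557). Gclm (chromosome 3, 122245557 to 122270732), the modifier subunit that raises the activity of the enzyme, had 10.1 against 22.1, 29.1 and 31.2 in bile duct, and 8.38 against 33.8, 21.9 and 34.8 in pancreatic duct. Its organoid means were 27.5 ± 4.76 and 30.2 ± 7.17 (SD, n = 3 each), and its rise, log2 1.52 (SE 0.22, limma adjusted p = 0.000868), passed under all 14 alternatives of that fit. Exons of Gclm overlap those of Gm6061 on the same strand and Gm17494 on the other. Gsr, glutathione reductase, had 36.5 against 38.1, 76.6 and 62.6 in bile duct, and 9.03 against 50.3, 38.8 and 58.2 in pancreatic duct. Bile duct organoid 1 stood next to its epithelium for Gsr, and the mean difference was smaller in bile duct than in pancreatic duct, untested (0.62 ± 0.51 in bile duct and 2.30 ± 0.29 in pancreatic duct; SD, n = 3 each). The common difference for Gsr was log2 1.46 (SE 0.41, limma adjusted p = 0.0196). Without pancreatic duct epithelium the calls of Gclc and Gsr were lost, at adjusted p = 0.0862 and 0.279 with limma.

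The 5 members grouped under NADPH supply, pentose phosphate enzymes and malic enzyme, all rose in the common fit, where 27.3% of all genes did. Tkt and Taldo1 of this group do not make NADPH themselves. The 20 genes of the proliferation list were also all at least 2-fold higher in organoids of both organs, and their part in the result was not tested. Tkt, transketolase of the non-oxidative pentose phosphate branch, had 37.8 against 112, 171 and 159 in bile duct, and 18.3 against 172, 119 and 152 in pancreatic duct. No organoid overlapped its epithelium, the organoid means were 148 ± 31.1 and 148 ± 26.7 (SD, n = 3 each), and the common difference was log2 2.42 (SE 0.28, limma adjusted p = 0.000297). Pgd (chromosome 4, 149149991 to 149166771), 6-phosphogluconate dehydrogenase and the second NADPH-producing step of the pathway, had 25.9 against 61.2, 92.5 and 96.9 in bile duct, and 10.3 against 91.6, 61.7 and 73.9 in pancreatic duct, with log2 2.19 (SE 0.30, limma adjusted p = 0.000741). G6pdx (chromosome X, 74409483 to 74429194), the X-linked enzyme of the first step, had 18.8 against 32.7, 63.0 and 70.8 in bile duct, and 12.7 against 74.4, 36.8 and 57.1 in pancreatic duct. For G6pdx bile duct organoid 1 and pancreatic duct organoid 2 were the lowest organoids, yet both were above their epithelium. The common difference was log2 1.72 (SE 0.36, limma adjusted p = 0.00550), lost without pancreatic duct epithelium (adjusted p = 0.0818), and part of its exons overlaps Ikbkg on the other strand. Me1, cytosolic malic enzyme, had 49.6 against 74.7, 85.3 and 80.8 in bile duct, and 21.9 against 80.4, 91.4 and 99.0 in pancreatic duct, with log2 1.34 (SE 0.27, limma adjusted p = 0.00460). Taldo1, transaldolase, changed least of the 5: its difference was 0.43 ± 0.10 in bile duct and 1.02 ± 0.14 in pancreatic duct (SD, n = 3 each), with log2 0.73 (SE 0.15, limma adjusted p = 0.00576). The calls of Tkt, Pgd and Me1 held under all 14 alternatives, and that of Taldo1 was lost without pancreatic duct epithelium. Of the 50-base stretches in Me1 exons, 28.3% also occur in other genes, mainly the pseudogene Gm7049.

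Among the thioredoxin, quinone and haem enzymes, Txnrd1 and Txn1 rose and Nqo1 fell, although Txnrd1 and Nqo1 are both textbook NRF2 targets. Txnrd1 (chromosome 10, 82833951 to 82897712), the cytosolic thioredoxin reductase, had 21.3 against 55.1, 56.8 and 64.8 in bile duct, and 11.5 against 67.5, 49.3 and 57.7 in pancreatic duct, and its difference was log2 1.83 (SE 0.20, limma adjusted p = 0.000247). Txn1, thioredoxin itself and the enzyme's substrate, had 212 against 354, 439.9 and 416 in bile duct, and 127 against 336, 271 and 299 in pancreatic duct, with log2 1.08 (SE 0.15, limma adjusted p = 0.000774). Nqo1 (chromosome 8, 107388225 to 107403206), a quinone reductase, went the other way. It had 13.1 against 2.05, 4.60 and 4.16 in bile duct, and 19.4 against 6.01, 4.56 and 3.93 in pancreatic duct. All 6 organoids lay below both epithelia, with means of 3.61 ± 1.36 and 4.84 ± 1.07 (SD, n = 3 each), and the common difference was log2 -1.75 (SE 0.25, limma adjusted p = 0.000976). These 3 calls held under all 14 alternatives. Hmox1, haem oxygenase 1, had 26.4 against 14.2, 8.16 and 9.33 in bile duct, and 14.1 against 11.5, 17.2 and 7.48 in pancreatic duct; it was lower in all bile duct organoids, straddled the epithelium in pancreatic duct and missed the limma threshold (adjusted p = 0.0986), which it passed without pancreatic duct organoid 2 (0.0316). Srxn1, sulfiredoxin, had 25.5 against 14.6, 29.5 and 31.9 in bile duct, and 12.3 against 19.2, 16.5 and 26.0 in pancreatic duct, with an adjusted p of 0.474 in the same limma fit. With FPKM as deposited the bile duct difference of Srxn1 changed sign.

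An antioxidant response element is the short sequence through which NRF2 acts. The letters TGACNNNGC, a core of that element, were searched on both strands of RefSeq promoter windows in build GRCm38.p6, which run from 250 bases before to 50 after a gene's start. Of 34 members with a window, 12 held a match (35.3%), against 14.0% of 27025 genes; windows numbered 44 and 32851, of which 27.3% and 12.4% held one. Of the 12 members with a match, 7 rose in the common fit (Nfe2l2, Gclm, Txnrd1, Gsta3, G6pdx, Pgd and Me1), 4 were not called (Srxn1, Prdx1, Sod1 and Mgst1) and Mt2 was not tested. Of the 22 with a window and no match, 6 rose, 7 fell and 9 were not called. Gclc, Gsr, Hmox1, Prdx6, Gsta4, Aldh3a1 and Aldh1a3 had no window. A match outside the window would not be seen, so no match, as for Nqo1, does not mean that the gene lacks the element. No test was made of a link between match and call. The stretches below are from members that rose (Gclm, Txnrd1, G6pdx, Gsta3) and that were not called (Prdx1, Sod1, Mgst1), to show the range; capitals mark the match, with 10 bases on either side, printed 5′ to 3′ along the gene's strand.
Gclm, chr3:122245413-122245441, plus strand, match starting at -134 from the RefSeq start of its window: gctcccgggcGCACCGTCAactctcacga
Txnrd1, chr10:82859104-82859132, plus strand, match at -92: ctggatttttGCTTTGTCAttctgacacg
G6pdx, chrX:74428919-74428947, minus strand, match at -57: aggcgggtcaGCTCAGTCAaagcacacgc
Gsta3, chr1:21240454-21240482, plus strand, match at -121: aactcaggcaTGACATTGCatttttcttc
Prdx1, chr4:116685456-116685484, plus strand, match at -133: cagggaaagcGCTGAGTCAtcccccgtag
Sod1, chr16:90220696-90220724, plus strand, match at -56: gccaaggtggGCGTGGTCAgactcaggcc
Mgst1, chr6:138140461-138140489, plus strand, match at -56: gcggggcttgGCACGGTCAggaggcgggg
In Gsta3 the letters run as searched, and in the others they lie on the opposite strand. Positions count from the start that RefSeq gives for that window; for Txnrd1, G6pdx and Mgst1 this is an internal start, and the match lies inside the span of the gene in the deposited table. A match is a description of the sequence, and these libraries did not measure binding. The metal response letters TGCACNC or TGCGCNC, searched the same way, occurred in 9 of 34 members (26.5%) and in 28.2% of all genes.

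Of the 5 peroxiredoxins, superoxide dismutases and catalase, Prdx6 rose and Cat fell in the common fit, where 27.3% of all genes rose and 30.8% fell. The median difference of the 5 was 0.43, against -0.02 for all genes. By the 2-fold rule 0 of the 5 were called in bile duct, where 38.9% of all genes were (median 0.14 against -0.09 for all genes), and 2, Prdx6 and Prdx1, were higher in pancreatic duct, where 15% of all genes were (median 0.76 against -0.09). Prdx6, a peroxiredoxin that also acts on phospholipids, had 45.7 against 73.4, 70.9 and 80.8 in bile duct, and 29.0 against 90.2, 70.8 and 116 in pancreatic duct, with log2 1.15 (SE 0.25, limma adjusted p = 0.00575), a call lost without pancreatic duct epithelium. Cat, the peroxisomal catalase, had 57.1 against 38.1, 36.6 and 33.7 in bile duct, and 44.1 against 32.7, 33.9 and 32.4 in pancreatic duct. Its groups did not overlap, and the common difference was log2 -0.53 (SE 0.09, limma adjusted p = 0.00249), a call lost as deposited and without bile duct epithelium. Prdx1, an abundant cytosolic peroxiredoxin, had 282 against 266, 245 and 227 in bile duct, and 115 against 235, 239.5 and 248 in pancreatic duct. All bile duct organoids were below and all pancreatic duct organoids above their epithelium, -0.20 ± 0.11 in bile duct and 1.06 ± 0.04 in pancreatic duct (SD, n = 3 each), and the bile duct value became 0.07 with FPKM as deposited. In the common fit Prdx1 had a limma adjusted p of 0.195, and of 0.0492 with FPKM as deposited, where it was called. Without bile duct epithelium that fit gave 1.06, the pancreatic duct difference alone. Without pancreatic duct epithelium it gave -0.20, the bile duct difference alone. Prdx1 spanned 227 to 266 over the 6 organoids and 115 to 282 over the epithelia. Sod1, the cytosolic copper-zinc superoxide dismutase, had 291 against 264, 334 and 373 in bile duct, and 193 against 296, 269 and 441 in pancreatic duct and was not called (limma adjusted p = 0.163). Sod2, the mitochondrial enzyme, ranged from 19.5 to 27.8 over all 8 libraries (adjusted p = 0.146, and 0.00480 with FPKM as deposited), and 21.0% of its 50-base exon stretches occur in other genes.

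Among the 4 glutathione peroxidases, Gpx2 rose, Gpx3 fell, and Gpx1 and Gpx4 were not called in the common fit, which called 58.2% of all genes. Gpx2 (chromosome 12, 76792333 to 76795554), a form found mainly in gastrointestinal epithelium, had 62.4 against 87.8, 138 and 167 in bile duct, and 0.965 against 161, 64.9 and 292 in pancreatic duct. The pancreatic duct epithelium value rests on 41 reads, and all 3 pancreatic duct organoids were far above it. The difference was 1.01 ± 0.47 for bile duct and 6.22 ± 1.08 for pancreatic duct (SD, n = 3 each). The common difference was log2 3.61 (SE 1.12, limma adjusted p = 0.0277), lost without pancreatic duct epithelium (adjusted p = 0.365) and without pancreatic duct organoid 1. In bile duct the organoid nearest the epithelium was organoid 1. Gpx3 (chromosome 11, 54902453 to 54910377), a secreted peroxidase of plasma, had 220.5 against 20.8, 4.17 and 4.06 in bile duct, and 88.5 against 6.67, 14.7 and 2.54 in pancreatic duct. The lowest epithelium exceeded the highest organoid, and the difference was log2 -4.16 (SE 0.74, limma adjusted p = 0.00261), called under all 14 alternatives. Fibroblast, smooth muscle and adipocyte lists fell in the same libraries, as did the acinar, endothelial and macrophage lists. The adipocyte sum went from 631 and 224 in the epithelia to 0.148 to 1.10, with 2 to 6 of 10 markers at 0 in an organoid. The part of these lists in the result was not tested. Gpx1, the widespread cytosolic form, had 268 against 191, 165 and 187 in bile duct, and 169 against 169.9, 191 and 171 in pancreatic duct, and Gpx4, which protects membrane lipids, ranged from 74.3 to 97.0; the limma adjusted p was 0.220 and 0.976. The call of Gpx1 as lower was made under median-ratio scaling and without pancreatic duct epithelium. The direction of both genes changed with the scaling, and 34.7% of the 50-base stretches of Gpx4 recur in other genes.

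Of the 11 glutathione transferases, Gsta3, Gsta4 and Gsto1 rose and Gstm1 and Gstm2 fell in the common fit, where 27.3% of all genes rose and 30.8% fell. The 4 alpha members and Gsto1 were at least 2-fold higher in pancreatic duct organoids, and 2 of the 10 transferases tested were lower. Of all genes there, 15% were higher and 25.4% lower. Gsta1 and Gsta2 passed the filter in pancreatic duct only through the organoids. In bile duct 2 of the 11 transferases were higher and 5 lower, with a median of -0.61, where 12.5% of all genes were higher and 26.3% lower. In bile duct the alpha members differed among themselves: Gsta3 and Gsta4 were higher, Gsta1 was lower and Gsta2 was not called. Gsta4 (chromosome 9, 78182774 to 78209349), an alpha transferase for lipid aldehydes such as 4-hydroxynonenal, had 142 against 580.4, 400.4 and 454 in bile duct, and 28.1 against 851, 418 and 479 in pancreatic duct. It had the highest organoid mean of all members, 478 ± 92.4 and 583 ± 235 (SD, n = 3 each), and rose by log2 2.99 (SE 0.56, limma adjusted p = 0.00310), under all 14 alternatives. Gsta3 (chromosome 1, 21240589 to 21265661), which also serves steroid isomerisation, had 31.3 against 40.8, 96.0 and 98.9 in bile duct, and 6.48 against 83.6, 34.7 and 89.8 in pancreatic duct, with log2 2.16 (SE 0.59, limma adjusted p = 0.0167), lost without pancreatic duct epithelium. Gsta1 (chromosome 9, 78230656 to 78242684) had 37.3 against 3.86, 8.98 and 15.8 in bile duct, and 0 against 27.5, 7.06 and 3.36 in pancreatic duct, where the pancreatic duct epithelium held 0 reads. Bile duct organoids all lay below their epithelium (-2.04 ± 0.90, SD, n = 3), and pancreatic duct organoids were on average at least 53.1-fold higher than a floor of 3 reads. It was the 1 member called in opposite directions. Its adjusted p in the common limma fit was 0.682. Gsta2 had 4.85 against 3.52, 5.39 and 9.11 in bile duct, and 0.129 against 15.1, 6.06 and 2.87 in pancreatic duct, the pancreatic duct epithelium value being 2 reads, so the ratio of 62.1 has a counting interval of 17.2 to 513 (95%). In the common fit Gsta2 was called only without bile duct epithelium. Values of both genes are uncertain, since 90.5% of the 50-base stretches of Gsta1 and 49.8% of those of Gsta2 recur in other genes, including each other, Gm3776 and Gm10639. Gsto1 (chromosome 19, 47854970 to 47864790), an omega transferase with reductase activity, had 155 against 271, 156 and 184 in bile duct, and 10.9 against 279, 270.2 and 168 in pancreatic duct. The lowest bile duct organoid was next to its epithelium (0.35 ± 0.41), whereas all pancreatic duct organoids stood far above theirs (4.30 ± 0.41; SD, n = 3 each). Its common call, log2 2.33 (SE 0.79, limma adjusted p = 0.0398), held in 7 of 14 alternatives. It was lost under median-ratio scaling, with no filter, without bile duct organoid 1, without any pancreatic duct organoid and without pancreatic duct epithelium, the last giving the highest adjusted p, 0.527.

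The mu transferases Gstm1 and Gstm2, neighbours on chromosome 3, fell. Gstm1 (chromosome 3, 108012255 to 108017973) had 249.7 against 24.3, 99.9 and 35.5 in bile duct, and 180.2 against 34.1, 38.4 and 59.6 in pancreatic duct, with log2 -2.26 (SE 0.50, limma adjusted p = 0.00690). Gstm2 (chromosome 3, 107981702 to 107986453) had 61.0 against 7.53, 39.5 and 9.55 in bile duct, and 84.7 against 11.3, 21.6 and 7.88 in pancreatic duct, with log2 -2.34 (SE 0.63, limma adjusted p = 0.0159). All organoids were below the epithelium of their organ for both genes, and bile duct organoid 2 was the highest organoid for each. Without bile duct epithelium both calls were lost, and that of Gstm2 also without pancreatic duct epithelium. In addition, 18.9% of the 50-base stretches of Gstm1 recur in other genes, mainly Gstm2-ps1. The pi transferase Gstp1 ranged from 4.07 to 10.6 and was not called; 33.7% of its stretches occur also in Gstp2. The microsomal members did not pass in the common fit, Mgst2 doing so only without pancreatic duct epithelium. Mgst1 ranged from 42.5 to 85.7. Mgst2 had 6.79 against 3.11, 2.58 and 2.14 in bile duct, and 0.307 against 0.626, 0.482 and 1.46 in pancreatic duct, with all bile duct organoids below their epithelium and the pancreatic duct libraries at or below 1.46. Mgst3 had 90.8 against 29.0, 55.1 and 51.2 in bile duct, and 30.1 against 39.9, 28.0 and 25.8 in pancreatic duct; its difference was -1.05 ± 0.49 in bile duct and 0.03 ± 0.32 in pancreatic duct (SD, n = 3 each), and the limma adjusted p was 0.229.

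Among the aldehyde and epoxide enzymes, Aldh1a1 fell and Aldh3a1 rose. Aldh1a1, which oxidises retinaldehyde to retinoic acid, had 93.0 against 0.709, 4.18 and 3.03 in bile duct, and 86.5 against 5.80, 3.72 and 2.31 in pancreatic duct. Every organoid was below 6 scaled FPKM where both epithelia were above 80, and the difference, log2 -4.52 (SE 0.46, limma adjusted p = 0.000161), had the lowest adjusted p of the members and held under all 14 alternatives. The B27 supplement was the form without vitamin A, the retinoid precursor. Whether the rest of the medium held any is not given in the sources used here, and its part was not tested. Aldh3a1, an aldehyde dehydrogenase for medium-chain and aromatic aldehydes, had 0.597 against 7.03, 21.0 and 4.95 in bile duct, and 0.273 against 3.78, 0.890 and 1.83 in pancreatic duct. Its epithelium values rest on 13 and 7 reads, and being under 1 FPKM in both it entered the fit only through the organoids, where it is high, so its call describes a gene that had to differ. Every organoid was above its epithelium, and the common difference was log2 1.94 (SE 0.60, limma adjusted p = 0.0275), a call lost with no organ term, without pancreatic duct organoid 1 and without bile duct epithelium (limma adjusted p = 0.278 for the last). Aldh1a3, a related retinaldehyde oxidising enzyme, had 7.86 against 18.9, 0.516 and 0.467 in bile duct, and 1.69 against 8.95, 18.6 and 1.15 in pancreatic duct and was not called (limma adjusted p = 0.965). Ephx1, microsomal epoxide hydrolase, had 86.4 against 59.2, 78.3 and 86.9 in bile duct, and 126 against 170.4, 65.6 and 156 in pancreatic duct, and its organoids straddled the epithelium (limma adjusted p = 0.754). Of the metallothioneins, small metal-binding proteins, Mt1 (chromosome 8, 94179082 to 94180327) had 132 against 39.3, 60.5 and 83.7 in bile duct, and 164 against 39.2, 56.8 and 62.0 in pancreatic duct, below the epithelium in all 6 organoids. The difference was log2 -1.40 (SE 0.30, limma adjusted p = 0.00617), a call lost without pancreatic duct epithelium. Mt2 was listed at 0 in 7 libraries and had 1 read in pancreatic duct epithelium, and 432 of its exon bases overlap the antisense gene Gm45774, so its level cannot be read.

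**Figure D3:**
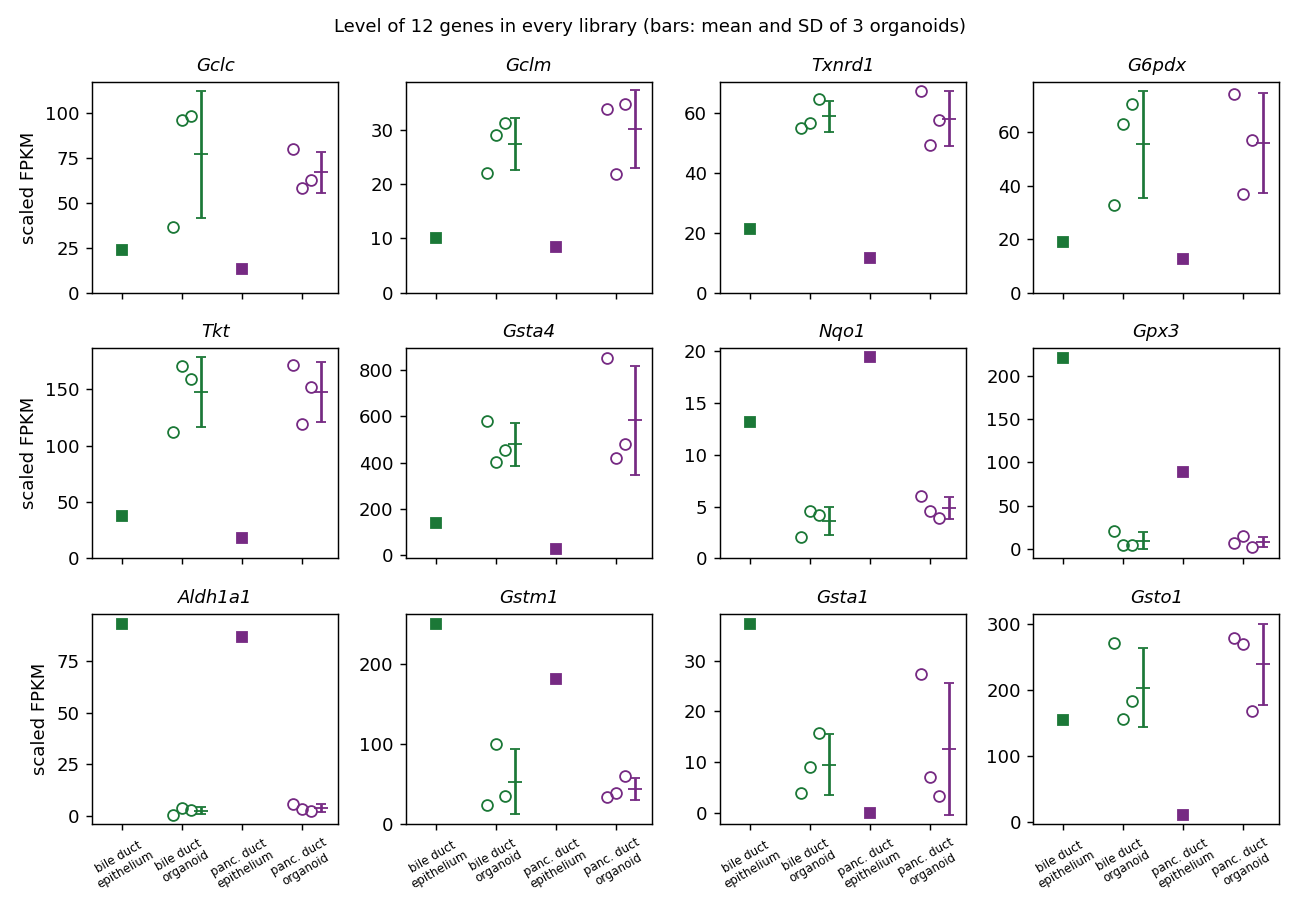
Scaled FPKM (linear axes) of 12 members in every library; filled squares are single epithelium libraries, open circles single organoids, and bars the mean and SD of 3 organoids. Gclm, Txnrd1 and Tkt are higher in all organoids, Nqo1, Gpx3 and Aldh1a1 lower, and of these 12 Gsta1 and Gsto1 differ most between the epithelia.

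Between the epithelia, members were mostly higher in bile duct. Of 39 members tested by size, 15 were at least 2-fold higher in the bile duct library and 0 in the other, where 13.7% of 15536 genes were called (9% toward bile duct, 4.69% toward pancreatic duct). The median difference was 0.73 for members and -0.04 for all genes, and at any size 33 of the 39 (84.6%) were higher in bile duct, against 46.3% of all genes tested. Gpx2, Gsta1, Gsta2 and Mgst2, which are among the 15, were under 1 FPKM in pancreatic duct epithelium. They passed the filter only through the bile duct library, where they are high. The largest differences were Gpx2 (62.4 against 0.965, log2 5.01), Gsto1 (155 against 10.9, log2 3.71) and Gsta1 (37.3 against 0). Others at least 2-fold apart included Mgst2 (2.58), Gsta4 (2.29), Gsta3 (2.11), Gsr (1.90), Mgst3 (1.56), Gpx3 (1.31), Prdx1 (1.28), Pgd (1.26), Me1 (1.14) and Tkt (1.01). The duct marker sum was 3.98 times higher in bile duct epithelium, the intestinal secretory and absorptive sums were 3678 against 783 and 760.5 against 81.4, the hepatocyte sum was 519 against 160.4, the adipocyte sum was 631 against 224, and the acinar sum was 33407 against 68159. Of the hepatocyte markers 11 of 16 tested were at least 2-fold higher in the bile duct library and 2 lower, and of the adipocyte markers 5 of 9 were higher and 1 lower. No duct marker was at 0 in either library. The part of these differences in the members' levels was not tested, and each epithelium is 1 library.

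**Figure D4:**
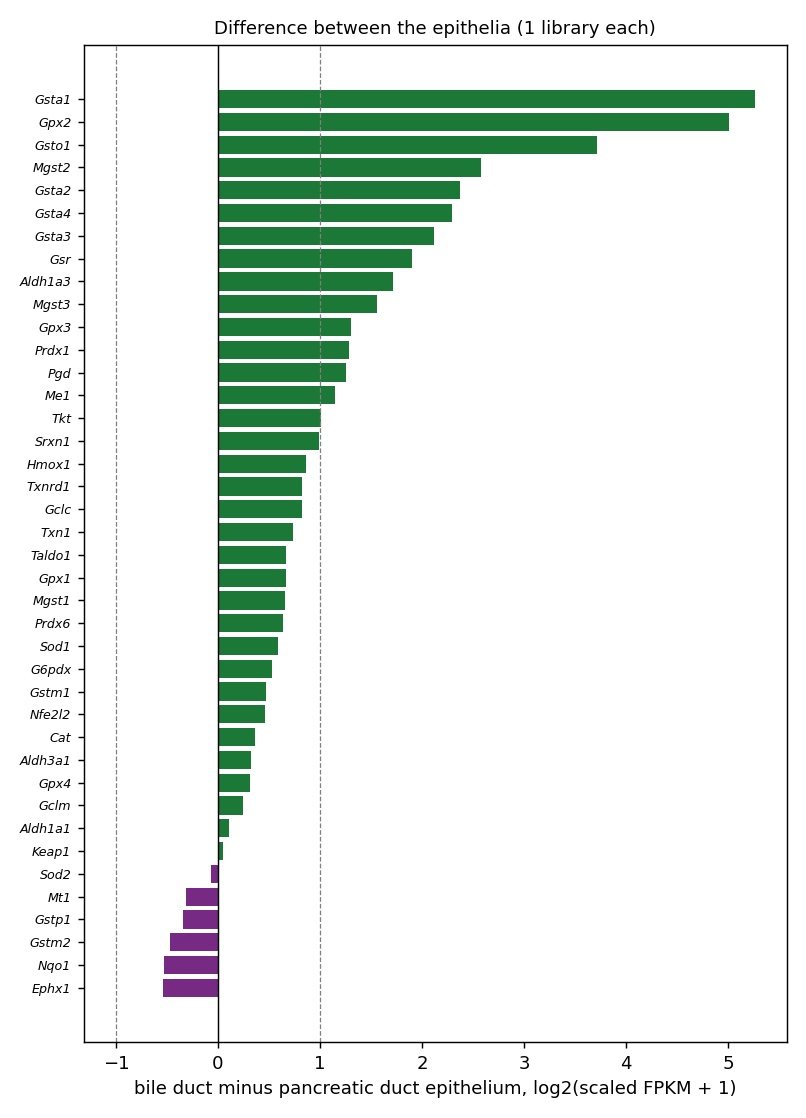
Bile duct minus pancreatic duct epithelium on log2(scaled FPKM + 1) for 40 members, 1 library each, with dashed lines at 2-fold. Gpx2 (5.01), Gsta1 and Gsto1 (3.71) extend furthest toward bile duct, and no member reaches 2-fold toward pancreatic duct.

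Between the organoid groups no member passed. limma called 0 of 11978 genes (0%) and 0 of 40 members at an adjusted p under 0.05; at an unadjusted p under 0.05 it found 298 genes (2.49%) and 3 members. These unadjusted counts became 1009 genes and 7 members without bile duct organoid 1, 154 genes and 2 members without bile duct organoid 2, and 187 genes and 2 members without bile duct organoid 3. The same 3 members were those whose groups did not overlap, a pattern seen in 6.73% of all genes. Mgst2 was higher in bile duct organoids by log2 0.99 (SE 0.24, limma adjusted p = 1.00). Aldh3a1 was higher by 1.79 (SE 0.56, limma adjusted p = 1.00), and Txn1 by 0.42 (SE 0.14, limma adjusted p = 1.00). The 13.7% of genes that differed by size between the epithelia and the 0% called between organoids come from different rules, and the change from one to the other was not tested.

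Single organoids nevertheless differed widely for some members. The median SD of log2(scaled FPKM + 1) over the 6 organoids was 0.40 for the 40 members tested and 0.21 for all genes tested. The added 1 narrows the spread of low genes, and members were higher: 31 of 40 passed a filter at 10 FPKM, against 5424 of 11978 genes. The medians are therefore not on equal footing. Aldh1a3 varied most, 40.6-fold from the lowest to the highest organoid: it was high in bile duct organoid 1 and pancreatic duct organoids 1 and 2, and low in the rest. Bile duct organoid 1 and pancreatic duct organoid 2 were the lowest pair for 12 of 40 members (30.0%), against 20.9% of all genes, and bile duct organoid 1 and pancreatic duct organoid 3 for 6 (15%), against 4.02% of all genes. The first group were Tkt, Srxn1, Gsta3, Gpx2, Ephx1, Gclc, Txnrd1, Sod1, Gsr, Pgd, Gclm and G6pdx, and the second Aldh1a1, Nqo1, Gstm2, Gsta2, Gsta1 and Keap1. Of the 15 possible pairs these were the most frequent lowest pairs among members. Bile duct organoid 1 and pancreatic duct organoid 2 were also the highest pair for 5 members, Aldh1a3, Hmox1, Gpx1, Sod2 and Gpx3 (12.5%), against 20.2% of all genes. These 2 libraries had the lowest proliferation sums of their groups, 569.9 for bile duct organoid 1 against 841 and 912, and 421 for pancreatic duct organoid 2 against 707 and 773. Its part was not tested. Gstm1 and Gstm2 shared their highest library, bile duct organoid 2, and Gsta1 and Gsta2 theirs, pancreatic duct organoid 1; the latter share sequence.

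**Figure D5:**
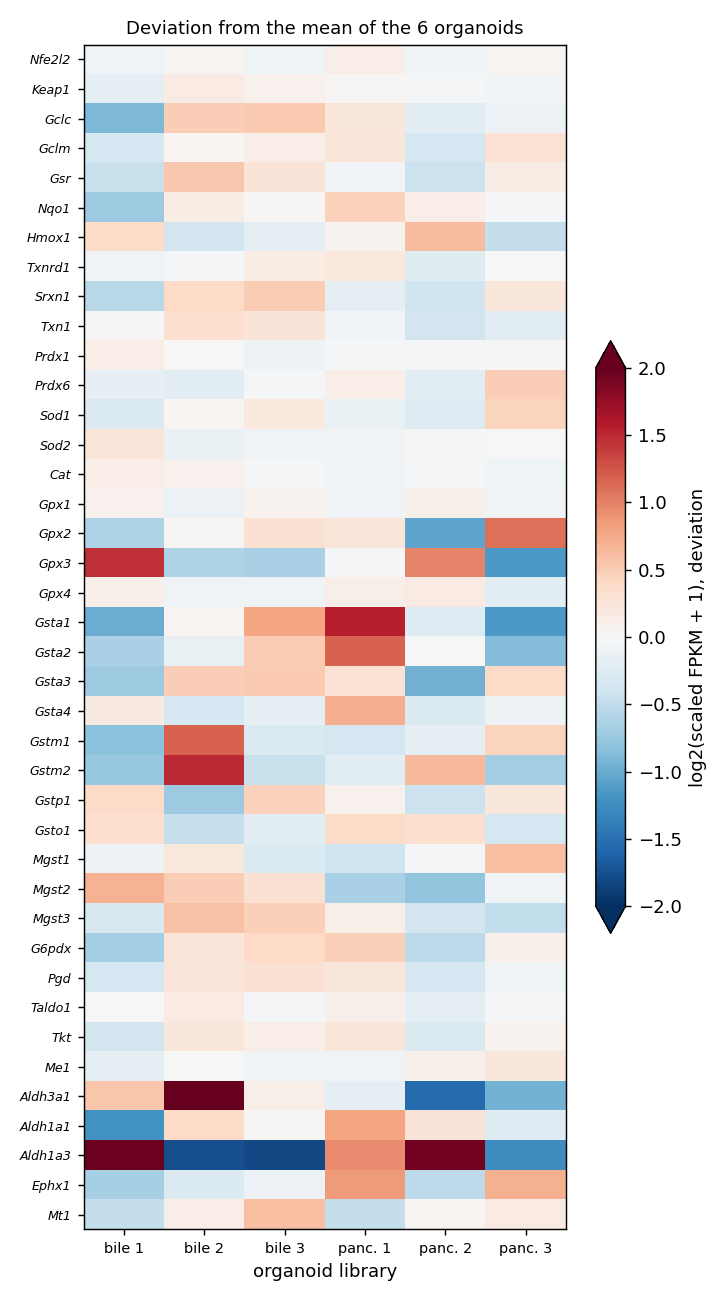
Deviation of each organoid from the mean of the 6 organoids, on log2(scaled FPKM + 1), for 40 members (red above, blue below the mean). Bile duct organoid 1 and pancreatic duct organoid 2 are blue for Gclc, Gsr, Gsta3, G6pdx and Tkt and red for Gpx3 and Aldh1a3.

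The rest of the pathway was read from a list of 137 other genes, of which 134 were found. In the common fit 34 of 119 tested rose and 35 fell, shares near the background of 27.3% and 30.8%, with a median of 0.03 against -0.02 for all genes. The list of other genes of NADPH supply and its pathways had the most rises, 11 of 14 with 1 fall and a median of 0.91. Other aldehyde, epoxide, quinone and conjugation genes fell more often than they rose, 13 of 26 against 3, with a median of -0.59. The cystine carrier Slc7a11, which imports the cystine used for glutathione, had 0.186 against 6.25, 11.0 and 10.2 in bile duct, and 0.289 against 4.84, 10.7 and 10.4 in pancreatic duct, with log2 2.95 (SE 0.32, limma adjusted p = 0.000229). Its epithelium values rest on 29 and 53 reads and were under 1 FPKM in both, so it too entered the fit only through the organoids. Abcc3, an export pump for conjugates, had 17.4 against 56.0, 105 and 64.6 in bile duct, and 3.17 against 66.6, 87.6 and 55.7 in pancreatic duct, with log2 3.03 (SE 0.47, limma adjusted p = 0.00130). Mthfd1, a folate enzyme that yields NADPH, had 8.75 against 24.5, 41.0 and 46.1 in bile duct, and 8.62 against 40.9, 20.4 and 41.9 in pancreatic duct, with log2 1.87 (SE 0.33, limma adjusted p = 0.00250), and Tfrc, the transferrin receptor, rose by log2 2.11 (SE 0.25, limma adjusted p = 0.000346). Every organoid exceeded its epithelium for these 4 genes. Gpx8, a peroxidase of the endoplasmic reticulum, had 53.8 against 4.52, 1.38 and 3.11 in bile duct, and 66.9 against 1.17, 2.47 and 5.45 in pancreatic duct, with log2 -4.04 (SE 0.45, limma adjusted p = 0.000268). Sult1a1, a phenol sulfotransferase, had 108 against 5.05, 3.56 and 2.39 in bile duct, and 76.6 against 9.78, 2.55 and 5.71 in pancreatic duct, with log2 -4.09 (SE 0.44, limma adjusted p = 0.000230). Aldh1a2, another retinaldehyde oxidising enzyme, fell by log2 -3.36 (SE 0.29, limma adjusted p = 7.15e-05), and Adh1, an alcohol dehydrogenase with epithelial levels of 17.3 and 14.6, had 0 reads in 4 organoids, so no fold is given. Adh1 reached at most 0.039 in an organoid and passed the filter only through the epithelia, where it is high. The fibroblast, smooth muscle, acinar, endothelial and macrophage sums fell in the same libraries as these 4 genes, and their part was not tested.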

How the data were processed

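The authors deposited 1 table with 1 column per library (8 samples, 0 other columns); no header names its unit. The values the authors deposited were read as FPKM, reads per exon length and library size: multiplied by GENCODE M21 exon lengths they gave whole reads, within 0.05 of a read, for 28310 genes (90.7%) and 35 of the 41 members. Aligner settings, filters and strand are not given in the sources used here; the submitters' processing notes name Bowtie2 2.2.3, HISAT2 2.1.0, TopHat2 and HTSeq 0.6.0, without their roles. Per the labels' protocols, RNA with poly-A tails was captured and the NEBNext Ultra kit was used. Coordinates are those of the deposited table, identical to GENCODE M21 (GRCm38) for 36 of 41 members.

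FPKM were scaled over all 8 libraries by a trimmed mean of log ratios (30% of ratios and 5% of levels trimmed, genes with at least 1 FPKM in 1 library), and log2(FPKM + 1) was used, which understates the change of low genes. With 1 library per epithelium, genes with at least 1 FPKM in the epithelium or the organoid mean and a log2 difference of at least 1, all organoids on the same side, were counted with no test. limma with an intensity trend tested organoid against epithelium (genes at 1 FPKM in at least 2 libraries) and bile duct against pancreatic duct organoids (at least 3 of 6), Benjamini-Hochberg adjusted over all genes, threshold 0.05; the first fit has 5 residual degrees of freedom. Given in every library are members at least 2-fold apart in both organs, or opposite, or between epithelia, with the 3 smallest p between organoids or the 5 highest levels; of other pathway genes, those given are the 4 per direction whose lesser organ difference was largest, with at least 10 FPKM in some library. A few further members are also given in full. The members and lists were chosen with earlier results of these data known. Shared sequence is the share of a gene's 50-base exon stretches found in other GENCODE M21 transcripts. Alternatives varied scaling, pseudocount, filter, the organ term, the replicate block and each library. Tools were R 4.3.3, limma 3.58.1, Python 3.11.15, pandas 2.3.3, numpy 2.4.6 and matplotlib 3.10.9.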

Additional observations from a re-analysis of the deposited data

Results flagged for a closer look

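For 3 members that passed the filter of 1 FPKM in both organs, all organoids of one organ moved one way from their epithelium and all of the other organ the opposite way. This held at any size for 528 of the 14419 genes tested in both organs (3.66%), and for 3 of 39 members. The log2 difference of Prdx1 was -0.20 in bile duct and 1.06 in pancreatic duct, that of Gpx1 was -0.57 and 0.068, and that of Gsta1 was -2.04 and 3.32. No test was made of the contrast between organs, so the difference was not tested, as each rests on 1 epithelium library. Mgst2 had the same pattern, but its pancreatic duct epithelium and organoid mean were under the filter. The bile duct sign of Prdx1 turned to 0.07 with FPKM as deposited, and the pancreatic duct sign of Gpx1 to -0.13 under median-ratio scaling. Gsta1 had 0 reads in pancreatic duct epithelium, so its fitted value depends on the pseudocount, and its reads are shared with near-identical genes.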

How the results depend on the processing

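With a filter at 10 FPKM the genes called were 2886 in bile duct, 3109 in pancreatic duct, 4535 in the common fit and 907 between the epithelia, where fewer genes were tested. Without bile duct epithelium the common fit gives the pancreatic duct difference alone, and without pancreatic duct epithelium that of bile duct alone. The 1 epithelium left is then assumed to vary like the other groups. Leaving out each library in turn gave 5912 to 6357 genes in bile duct, with 8 to 11 members higher and 9 to 10 lower, and 6017 to 6341 in pancreatic duct, with 17 to 20 members higher and 6 lower. The common fit then gave 3995 to 9045 genes, 8 to 18 members higher and 4 to 8 lower, and the organoid comparison 0 to 10 genes and 0 members, the 10 without pancreatic duct organoid 3. None of the members reversed a call. In the common fit 7 higher (Gclm, Txnrd1, Txn1, Gsta4, Pgd, Tkt, Me1) and 3 lower members (Nqo1, Gpx3, Aldh1a1) were called under all 14 alternatives. These are 19.4% and 8.33% of the 36 members tested under every alternative, against 24.7% and 9.74% of the 6568 such genes. With the replicate number of the organoids as a block, limma called 0 genes and 282 at an unadjusted p under 0.05, against 298 without the block. Same-numbered organoids correlated at -0.11, -0.44 and 0.48 in their deviations from the group means. Those with different numbers ranged from -0.60 to 0.65, so these values cannot decide whether the numbers pair the organoids. Depth limits Gsta1, Gsta2, Gpx2, Mgst2 and Aldh3a1, which had 0 to 41 reads in an epithelium.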
